A study of Homo sapiens with 18 samples.

Results

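The long-term response of A549 cells to sodium propionate (SP) was described from 6 of the 18 RNA-seq libraries of the series. They comprised the 3 libraries of cells kept in 5 mM SP for 12 days (SP 12 days) and the 3 libraries of untreated cells taken at day 3 (control), both from the same count table, and they were chosen by their labels. A549 is an established cell line from a human lung adenocarcinoma and was labelled wild type in every group. The table listed 61541 genes, of which 17775 had enough reads to be tested. The other libraries were 3 of cells in 5 mM SP for 3 days (SP 3 days), used here to estimate the spread and as a second comparison, and 9 from a time course over hours (SP and untreated), not analysed here. The study asked whether SP strengthens the epithelial program of lung cancer cells and for how long. No untreated library was taken at day 12, so 12 days of SP and the longer time in culture cannot be told apart. The labels do not state whether replicates came from separate cultures, so p-values measure only the spread between these libraries, which may be technical.

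Propionate is a short-chain fatty acid released by gut bacteria that ferment fibre. It enters cells through monocarboxylate transporters, is activated to propionyl-CoA, which is carboxylated in mitochondria and passed into the citric acid cycle, and at millimolar concentrations it inhibits histone deacetylases. Epithelial cells are held together by E-cadherin junctions, desmosomes and tight junctions over a keratin skeleton, and in the epithelial-to-mesenchymal transition (EMT) these give way to a migratory, matrix-producing state. A549 cells lie between these states and carry an inactive KEAP1, the repressor of the antioxidant factor NRF2, so that NRF2-driven detoxifying enzymes are abundant in them.

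Between 15425281 and 21992046 reads were counted to genes per library. The genes set as markers of the labelled cell type had reads in all 6 libraries, at unlike levels. Over KRT7, KRT8, KRT18, ALDH1A1 and AKR1B10 the lowest value was 22547 normalized counts. That unit, used throughout, is reads scaled by TMM factors to the mean library size. ALDH3A1 had 12143 or more. In the controls KRT19 had 5299, 4476 and 5799, CDH1 2749, 2924 and 2831 and EPCAM 161, 180 and 189. AKR1C1 had 1726, 1524 and 2200 at SP 12 days. Summed over the list, immune markers lay at 22.1 to 24.7 CPM in the controls and 19.9 to 37.6 at SP 12 days, with 4 of 14 at 0 in every library. Endothelial markers went from 5.83 to 6.46 up to 11.4 to 14.7, and fibroblast markers from 20.2 to 20.7 up to 66.8 to 97.4. Erythroid markers stayed at or under 0.364. Among 13072 genes with a mean of at least 50, SP 12 days replicate 3 stood above both other replicates of its group by at least 1.5-fold in 523 genes and below them in 368, against 1 to 19 and 7 to 63 in the other libraries. Values that rest on this library are therefore given with and without it. In bulk RNA, fewer cells of a type and less RNA per cell cannot be told apart.

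A gene was called when its adjusted p was under 0.0001 and its fold change at least 2 (edgeR quasi-likelihood test, Benjamini-Hochberg adjustment over all genes tested), and it was said to have passed, risen or fallen when the adjusted p was under 0.05. Log2 fold changes are given with their standard error, over 3 libraries in each group. At SP 12 days, 1620 genes were called (9.11% of those tested), 1223 of them higher (6.88%) and 397 lower (2.23%), so that 75.5% of the called genes were higher. In all, 8858 genes passed (49.8%), 4692 higher (26.4%) and 4166 lower (23.4%). The groups did not overlap in any called gene, a property that 9944 genes in all had (55.9%). The median log2 fold change over all genes was −0.004. At least 4-fold changes were found among called genes for 573 higher and 102 lower, and at least 16-fold changes for 127 and 21. Without SP 12 days replicate 3, 1138 of the 1223 and 373 of the 397 were still called, and 1332 genes in all were called higher and 662 lower, a total of 1994. The calls of 1027 genes (786 higher and 241 lower) were made again whichever of the 6 libraries was left out.

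**Figure D1:**
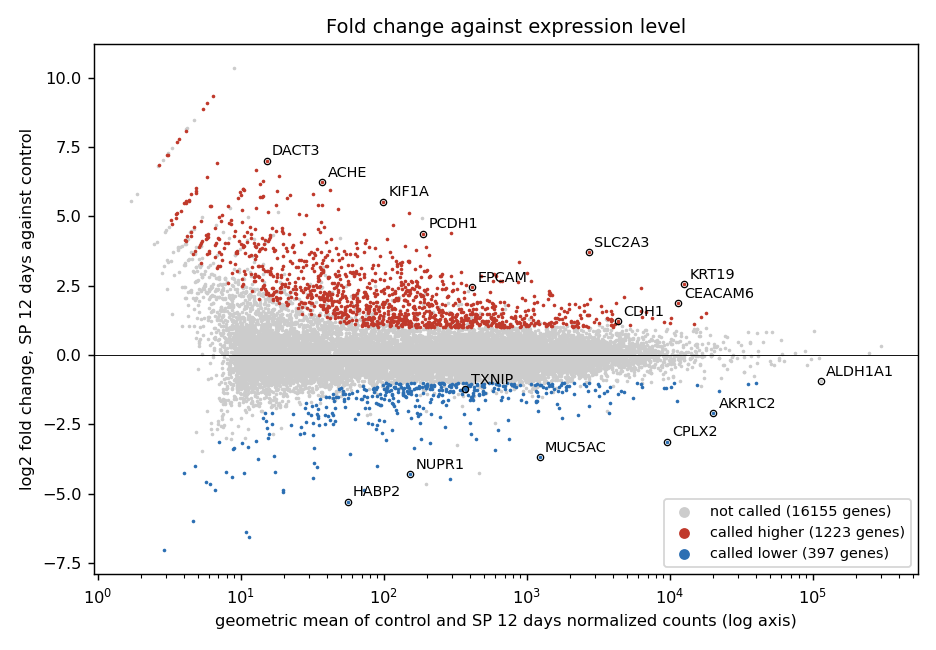
Each point is a gene, placed by the geometric mean of its control and SP 12 days normalized counts (log axis) and its log2 fold change, with the 1223 genes called higher in red and the 397 called lower in blue. Most of the larger rises sit at low counts, whereas KRT19, SLC2A3, CEACAM6 and AKR1C2 changed at high counts.

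The called genes differed in kind by direction. Genes called higher were mostly rare in the controls, with a control median of 52.8 normalized counts against 329 for those called lower and 290 over all genes tested. When genes were divided into 6 equal bins by control level, 13.4% of the lowest bin (up to 20.2 counts) were called higher and 0.135% lower. In the highest bin (above 1400 counts) the shares were 1.82% and 2.63%. Genes near 0 in the controls were tested only if an SP group held enough reads, and they had little room to fall. The filter and the floor thus set part of this difference in advance. In 59 of the genes called higher the 3 control libraries together held 3 reads or fewer, and in 9 of the genes called lower the 3 SP 12 days libraries did. Protein-coding genes made up 92.0% of the genes called higher, 84.6% of those called lower and 78.5% of those tested, and long noncoding RNAs 6.05%, 12.3% and 14.9%. On chromosome 19, which carries most of the zinc finger gene clusters, 149 of 1243 genes tested were called higher (12.0%), and on the other autosomes, chromosome 21 left aside, and on X the share lay between 4.4% and 8.87%.

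The largest rises among genes with a mean of at least 100 normalized counts in a group began from almost no reads. ACHE, acetylcholinesterase, had 4.3, 1.13 and 6.37 normalized counts in the controls and 300.0, 359 and 273 at SP 12 days. Its groups were far apart (log2 fold change 6.23 ± 0.26, adjusted p 5.7e-11). KRTAP3-1, a keratin-associated protein of the hair shaft, had 5.16, 5.63 and 4.25 in the controls and 332, 344 and 283 at SP 12 days (log2 fold change 5.96 ± 0.19, adjusted p 5.96e-12). KIF1A, a kinesin that carries synaptic vesicle precursors, had 15.5, 12.4 and 14.9 in the controls and 714, 555 and 736 at SP 12 days (log2 fold change 5.53 ± 0.17, adjusted p 3.1e-12). In all 3 genes each SP 12 days library lay far above each control. SEMA7A, a membrane-anchored semaphorin, had 1.72, 0 and 2.12 normalized counts in the controls and 124, 111 and 107 at SP 12 days (log2 fold change 6.28 ± 0.34, adjusted p 8.31e-10). The same order of change was seen in TMEM255A (log2 fold change 5.40 ± 0.23, adjusted p 6.5e-11), in HTR3A, a subunit of a serotonin-gated ion channel (log2 fold change 6.16 ± 0.49, adjusted p 7.91e-08), and in NSG1, a protein of neuronal endosomes (log2 fold change 5.41 ± 0.33, adjusted p 2.82e-09). ZBED2, a transcription factor of keratinocytes, rose from 2.58 ± 1.27 to 144 ± 40.0 (SD). NGFR, the low-affinity neurotrophin receptor, was at 1.72, 2.25 and 2.12 in the controls and 108, 71.7 and 203 at SP 12 days, and MAN1A1, a Golgi mannosidase, at 2.58, 3.38 and 2.12 in the controls and 117, 87.0 and 250.0 at SP 12 days. In both, SP 12 days replicate 3 held the highest value. Exons of NSG1, NGFR and MAN1A1 overlap those of another annotated gene, and the strand used in counting was not stated, so reads could have been shared. The call of NGFR was lost without any 1 control (highest adjusted p 0.000297), that of MAN1A1 without any 1 control (highest adjusted p 0.000214). MAN1A1 had a log2 fold change of 5.16 without SP 12 days replicate 3.

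DACT3, an antagonist of Wnt signalling held silent by histone marks in some cancers, rose from 3 reads in the 3 controls together to 478 at SP 12 days. Its libraries held 0, 1.13 and 2.12 normalized counts in the controls and 148, 81.6 and 205 at SP 12 days, and the SP 12 days libraries, though unequal, all lay above the controls. The ratio of reads was 147 (95% counting interval 49.9 to 714), and the test gave a log2 fold change 7.01 ± 0.62, adjusted p 4.11e-06. The call of DACT3 was lost without control replicate 2 (adjusted p 0.000121). DACT3 had a log2 fold change of 6.36 without control replicate 1. DACT3 had a log2 fold change of 7.89 without control replicate 3. The promoter is shown because the gene went from near silence to expression and because this window holds 33 CpG in 300 bases. With each gene taken at its window of most CpG, the median was 28 over tested genes and 28 over genes called higher. The window shown is 1 of 2 RefSeq windows of DACT3, and the other held 8 CpG and 1 GC box. The window spans 250 bases before to 50 after the RefSeq start at chr19:46661133-46661432 of GRCh38.p14, minus strand, and the capitals mark GC boxes (GGGCGG or its reverse CCGCCC), the letters bound by SP1-type factors.
DACT3: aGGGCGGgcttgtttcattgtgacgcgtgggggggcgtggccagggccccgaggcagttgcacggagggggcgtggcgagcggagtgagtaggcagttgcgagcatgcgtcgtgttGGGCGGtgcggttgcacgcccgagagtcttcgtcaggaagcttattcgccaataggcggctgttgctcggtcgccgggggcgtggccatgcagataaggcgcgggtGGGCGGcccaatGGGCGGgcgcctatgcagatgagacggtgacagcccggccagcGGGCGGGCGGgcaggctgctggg
The window holds 6 matches, of which some overlap. Of the 1332 windows of 861 genes called higher that could be matched, 63.0% held at least 1 GC box, a share near the 64.2% of the windows of all tested genes.

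Called genes were also ranked by their gain in mean normalized counts. KRT19, a keratin of simple epithelia, gained the most counts among called genes, with 5299, 4476 and 5799 in the controls and 34634, 33997 and 22682 at SP 12 days (log2 fold change 2.55 ± 0.15, adjusted p 1.03e-08). Replicate 3 was the lowest of its group, and the log2 fold change was 2.71 without it. The more abundant keratins KRT8 (log2 fold change 0.88 ± 0.12, adjusted p 2.63e-05) and KRT18 (log2 fold change 0.83 ± 0.13, adjusted p 0.000113) rose by more counts but by less than 2-fold, KRT8 from a mean of 75586 to 138627 and KRT18 from 38572 to 68566. PRSS23, a secreted serine protease, had 10572, 10636 and 10328 in the controls and 28361, 25431 and 37392 at SP 12 days (log2 fold change 1.53 ± 0.12, adjusted p 3.49e-08). FASN, the fatty acid synthase, had 9931, 9084 and 11597 normalized counts in the controls and 28651, 30034 and 20499.7 at SP 12 days (log2 fold change 1.37 ± 0.13, adjusted p 6.56e-07). Both genes had groups that did not overlap. TFPI2, an inhibitor of matrix proteases, had 2764, 3029 and 2325 in the controls and 16541, 15096 and 12256 at SP 12 days (log2 fold change 2.43 ± 0.14, adjusted p 3.5e-09). SLC2A3, the high-affinity glucose transporter GLUT3, rose from 747 ± 65.6 to 9753 ± 475 (SD), with the smallest adjusted p of the named genes (log2 fold change 3.71 ± 0.09, adjusted p 7.53e-13). Its near-identical copy SLC2A14 had 6.02, 5.63 and 3.19 in the controls and 202, 174 and 280.3 at SP 12 days, and reads of these 2 genes could have been assigned to either. Smaller relative gains at high counts were those of PTPRF, a receptor phosphatase of cell contacts (log2 fold change 1.32 ± 0.09, adjusted p 1.21e-08), CAVIN1, a coat protein of caveolae (log2 fold change 1.19 ± 0.10, adjusted p 1.42e-07), TNFAIP2 (log2 fold change 1.12 ± 0.08, adjusted p 2.45e-08) and SAT1, which acetylates polyamines (log2 fold change 1.14 ± 0.12, adjusted p 1.47e-06). Exons of KRT8, KRT18, PRSS23, TFPI2, SLC2A14, TNFAIP2 and SAT1 overlap those of another annotated gene. The call of SAT1 was lost without SP 12 days replicate 3 (log2 fold change 0.92).

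**Figure D2:**
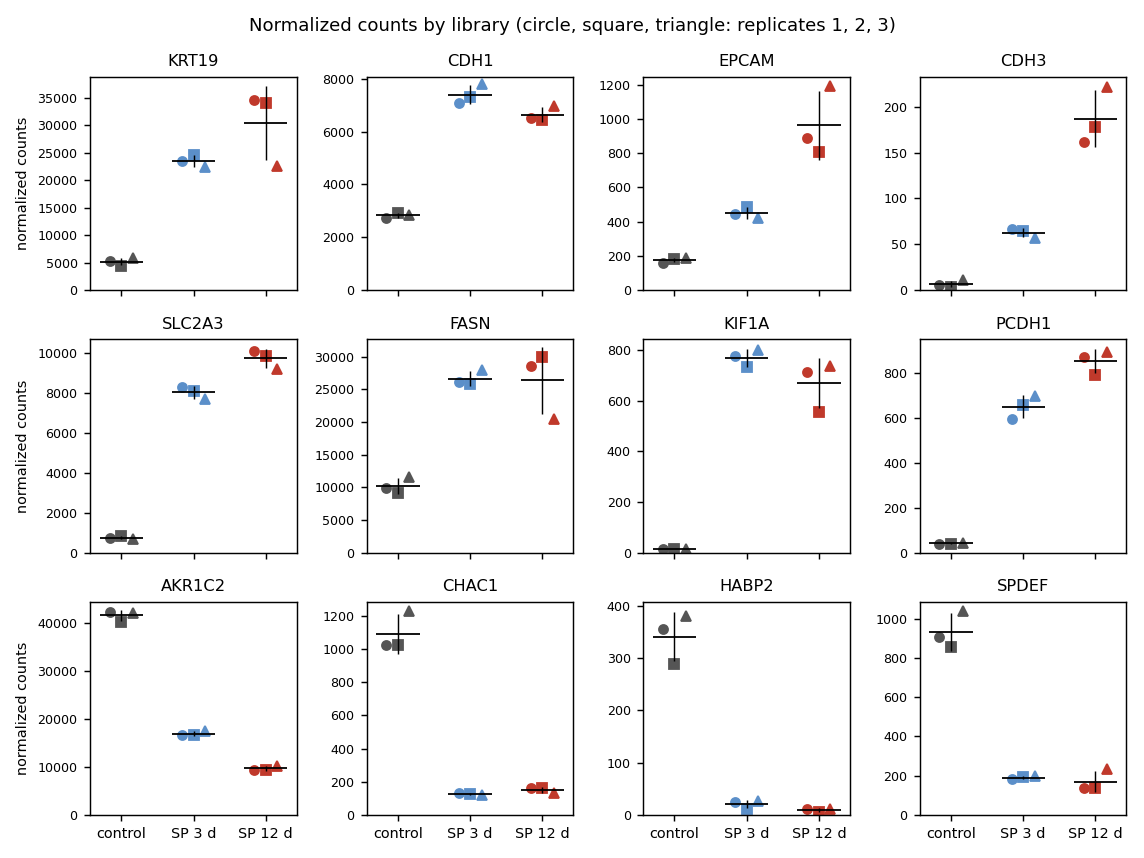
Normalized counts (vertical axis, from 0) of 12 named genes in each library of the control, of SP 12 days and of SP 3 days, with the group mean as a line and the SD as a bar. In each gene the 3 SP 12 days libraries lie wholly above or wholly below the 3 controls, and replicate 3 (triangle) is the lowest SP 12 days library for KRT19 and FASN.

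ALDH1A1, a retinal dehydrogenase, lost the most counts. It had 161822, 161762 and 148478 normalized counts in the controls and 85366, 86723 and 73162 at SP 12 days, with no overlap, and fell by less than the 2-fold minimum for a call (log2 fold change −0.94 ± 0.10, adjusted p 8.475e-07). It was called without SP 12 days replicate 1 or 2 (log2 fold change −1.0 or −1.01). The largest loss among called genes was that of AKR1C2, an aldo-keto reductase of steroid and xenobiotic metabolism, which had 42385, 40251 and 42165 normalized counts in the controls and 9413, 9372 and 10269 at SP 12 days (log2 fold change −2.1 ± 0.08, adjusted p 4.4e-11). The neighbouring copies fell as well, AKR1C1 by 2.1 and AKR1C3 by 1.66 on the log2 scale, but these genes are nearly identical and their reads are hard to separate. AKR1B10 had 49926, 47149.5 and 53924 in the controls and 24664, 25279.7 and 22547 at SP 12 days (log2 fold change −1.06 ± 0.09, adjusted p 9.76e-08). IGFBP4, a secreted binding protein of insulin-like growth factors, fell from 57299 ± 4660.1 to 28248 ± 2660.4 (SD). CTSL, a lysosomal cathepsin, had 14441, 13482 and 14975 in the controls and 6074, 6175 and 6351 at SP 12 days (log2 fold change −1.21 ± 0.08, adjusted p 7.26e-09), and PRPF8, the core protein of the spliceosome, had 14288, 14159.5 and 17227 normalized counts in the controls and 6751, 7649 and 6136 at SP 12 days (log2 fold change −1.15 ± 0.11, adjusted p 5.23e-07). CA12, a carbonic anhydrase of the cell surface, had 22133, 22046 and 23593 in the controls and 10104, 10172 and 11330.4 at SP 12 days, and its relative CA9, a classical hypoxia target, had 89.4, 91.2 and 126 in the controls and 2.27, 2.69 and 4.78 at SP 12 days (log2 fold change −4.87 ± 0.31, adjusted p 4.72e-09). CPLX2, complexin 2 of synaptic vesicle release, fell from 28136 ± 1742 to 3199.8 ± 1469.5 (SD), with SP 12 days replicate 3 above the other replicates (4888 against 2204 and 2507). Exons of PRPF8 and CA9 overlap those of another annotated gene. The call of IGFBP4 was lost without control replicate 3 or SP 12 days replicate 1 (log2 fold change −0.96), that of CPLX2 without any 1 control or SP 12 days replicate 2 (highest adjusted p 0.000259).

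The largest fold losses were found in genes of several kinds. HABP2, a plasma protease that binds hyaluronan, had 355, 288 and 380.3 normalized counts in the controls and 10.2, 4.48 and 11.1 at SP 12 days (log2 fold change −5.29 ± 0.27, adjusted p 4.43e-10). ANKS4B, a scaffold of the microvillus tip, had 101, 78.8 and 120.0 in the controls and 0, 0 and 2.39 at SP 12 days. It had 301 reads in the controls and 3 at SP 12 days, all of them in replicate 3, a ratio of 0.00918 (95% counting interval 0.00188 to 0.0271). ST6GAL2, a sialyltransferase, had 1399.9, 1453 and 1279 in the controls and 43.2, 56.5 and 82.8 at SP 12 days (log2 fold change −4.47 ± 0.16, adjusted p 2.11e-11). FXYD2, the gamma subunit of the sodium pump, had 404, 329 and 427 normalized counts in the controls and 14.8, 10.8 and 13.5 at SP 12 days (log2 fold change −4.89 ± 0.22, adjusted p 1.32e-10). None of these groups overlapped. BAAT, which conjugates bile acids, fell with a log2 fold change of −3.99 ± 0.19, MGAM, an intestinal glucosidase, with −3.35 ± 0.17, and FST, the activin antagonist follistatin, with −3.58 ± 0.19. C9orf152 (−4.05 ± 0.24) and the unnamed transcript ENSG00000289559 (−4.44 ± 0.29) followed. Exons of HABP2, FXYD2, BAAT, MGAM and ENSG00000289559 overlap those of another annotated gene.

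Across 28 hepatocyte-type genes tested (clotting factors, plasma proteins and liver enzymes), 15 fell and 5 rose, and the median log2 fold change was −1.21. The alcohol dehydrogenases ADH6 (log2 fold change −4.95 ± 0.34, adjusted p 1.03e-08) and ADH1C (log2 fold change −3.89 ± 0.28, adjusted p 2.02e-08) and transferrin, TF (log2 fold change −4.27 ± 0.41, adjusted p 4.83e-07), were among those that fell. FGB, the beta chain of fibrinogen, had 1421, 1372 and 1484 in the controls and 118, 86.1 and 561 at SP 12 days. Its SP 12 days replicate 3 stood well above the others, and the adjusted p was 0.0181. The list median by library was −1.65 in replicate 1, −1.82 in replicate 2 and −0.58 in replicate 3, and 10 of the 16 list genes examined were higher in replicate 3 than in its partners by the 1.5-fold measure. HNF4G, a nuclear receptor of liver and gut, fell by 2.36 on the log2 scale, and SPDEF, a factor of secretory epithelium, had 907, 854 and 1039.9 in the controls and 136, 139 and 233 at SP 12 days (log2 fold change −2.45 ± 0.17, adjusted p 3.46e-08). Promoters of ANKS4B, HABP2 and FGB (for the last pair 1 of 2 RefSeq windows each) are shown because each holds the letters GTTAAT (reverse ATTAAC), in capitals. The windows are chr16:21233449-21233748, chr10:113550581-113550880 and chr4:154562730-154563029, all on the plus strand of GRCh38.p14 and from RefSeq.
ANKS4B: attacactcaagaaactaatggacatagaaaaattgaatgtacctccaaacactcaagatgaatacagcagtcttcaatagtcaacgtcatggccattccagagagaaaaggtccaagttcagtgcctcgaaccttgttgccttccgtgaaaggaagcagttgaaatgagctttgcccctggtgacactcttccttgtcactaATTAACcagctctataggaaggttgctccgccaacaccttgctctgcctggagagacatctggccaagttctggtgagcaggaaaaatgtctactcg
HABP2: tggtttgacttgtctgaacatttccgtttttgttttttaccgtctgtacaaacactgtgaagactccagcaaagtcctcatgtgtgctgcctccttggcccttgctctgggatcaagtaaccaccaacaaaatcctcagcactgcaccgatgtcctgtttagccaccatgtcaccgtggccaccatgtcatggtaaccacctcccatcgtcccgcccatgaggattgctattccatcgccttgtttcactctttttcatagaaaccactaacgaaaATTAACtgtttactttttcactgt
FGB: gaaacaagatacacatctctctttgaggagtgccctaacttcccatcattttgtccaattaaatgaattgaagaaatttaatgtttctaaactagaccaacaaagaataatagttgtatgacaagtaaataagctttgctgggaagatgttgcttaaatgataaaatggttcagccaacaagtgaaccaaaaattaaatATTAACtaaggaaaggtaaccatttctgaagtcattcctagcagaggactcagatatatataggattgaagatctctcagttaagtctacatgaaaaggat
The letters start at −47, 27 and −51 from the start site. They stood in 8.08% of the 458 windows of genes called lower, 3.75% of those of genes called higher, 4.45% of the windows of all tested genes and 6.88% of all 35116 windows. A match is a description of letters, not a bound site. Exons of ADH6, TF and HABP2 overlap those of another annotated gene. FGB was called without SP 12 days replicate 3 (log2 fold change −3.84). ADH6 had a log2 fold change of −5.68 and ADH1C of −4.48 without SP 12 days replicate 3.

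The cell junction genes mostly rose. Of 18 adherens junction and desmosome genes tested, 11 rose and 1 fell (median log2 fold change 0.38). Of 22 tight junction and polarity genes 14 rose (median 0.32), and without SP 12 days replicate 3 15 rose and 2 fell (median 0.32). The median over all genes was −0.004. CDH3, P-cadherin, had 6.02, 3.38 and 10.6 normalized counts in the controls and 161, 178 and 221 at SP 12 days (log2 fold change 4.78 ± 0.26, adjusted p 9.29e-10). CDH1, E-cadherin, had 2749, 2924 and 2831 in the controls and 6520.1, 6425 and 6956 at SP 12 days (log2 fold change 1.23 ± 0.08, adjusted p 4.33e-09). CGN, cingulin of the tight junction plaque, had 115, 151 and 138 in the controls and 634, 624 and 522 at SP 12 days (log2 fold change 2.14 ± 0.12, adjusted p 9.36e-10). The claudins CLDN4 (log2 fold change 2.37 ± 0.17, adjusted p 7.36e-08) and CLDN3 (log2 fold change 1.54 ± 0.17, adjusted p 4.3e-06) and the tight junction protein MARVELD3 (log2 fold change 2.25 ± 0.17, adjusted p 2.99e-08) rose too. SPINT1, an inhibitor of the protease matriptase, also rose (log2 fold change 2.82 ± 0.24, adjusted p 2.65e-06). It belongs to a separate list of epithelial surface and trafficking genes, in which 8 of 20 rose and 3 fell (median 0.07). Without SP 12 days replicate 3, 8 of that list rose and 6 fell (median 0.01). Periplakin, PPL, which links desmosomes to keratin, had 327, 341 and 421 normalized counts in the controls and 870.4, 792 and 1022 at SP 12 days. TJP1, the tight junction scaffold ZO-1, had 3894, 4066 and 3836 in the controls and 3966, 4246 and 3179.6 at SP 12 days, with overlapping groups (log2 fold change −0.05 ± 0.09, adjusted p 0.684). Its log2 fold change was 0.05 without SP 12 days replicate 3. The claudin CLDN2 had 4579, 4347 and 5154 in the controls and 2219, 1730 and 5980 at SP 12 days. Replicate 3 lay above its controls and the other replicates below them (log2 fold change −0.50 ± 0.44, adjusted p 0.385). Exons of CDH3, CDH1, MARVELD3 and SPINT1 overlap those of another annotated gene. The call of CLDN3 was lost without control replicate 2 (adjusted p 0.000122), that of SPINT1 without control replicate 3 (adjusted p 0.000108).

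Most keratins rose, and the CEACAM and mucin genes moved in both directions. Of 13 keratins tested, 9 rose and 3 fell (median 0.88). KRT20, a keratin of intestinal epithelium, had 58.4, 59.7 and 60.5 in the controls and 782, 729 and 652 at SP 12 days (log2 fold change 3.59 ± 0.11, adjusted p 4.23e-12). KRT80 had 1300.2, 1316 and 1503 normalized counts in the controls and 5833, 6548 and 4210.0 at SP 12 days and KRT15, a basal-cell keratin, had 101, 81.1 and 115 in the controls and 384, 388 and 342 at SP 12 days, and neither pair of groups overlapped. Of 17 CEACAM and mucin genes, 6 rose and 6 fell (median −0.18). Without SP 12 days replicate 3, 6 rose and 9 fell (median −0.44). MUC3A, a membrane mucin of the gut, had 72.2, 50.7 and 86.0 in the controls and 310.2, 345 and 281 at SP 12 days (log2 fold change 2.16 ± 0.16, adjusted p 3.1e-08). The gel-forming mucin MUC5AC had 4143, 3927 and 5203 normalized counts in the controls and 239, 235 and 545 at SP 12 days (log2 fold change −3.68 ± 0.36, adjusted p 7.74e-05), and MUC5B had 6729.7, 6694 and 8581 in the controls and 842, 775 and 3805 at SP 12 days, which did not give a call (log2 fold change −2.01 ± 0.64, adjusted p 0.0385). MUC16 moved the opposite way to these, from 11.1 ± 4.7 to 210.2 ± 199 (SD) (log2 fold change 4.23 ± 0.87, adjusted p 0.00499). In all 3 of these mucins replicate 3 held the highest SP 12 days value. Exons of KRT15, MUC3A and MUC5B overlap those of another annotated gene. The call of MUC5AC was lost without any 1 control or SP 12 days replicate 1 or 2 (highest adjusted p 0.00054). MUC5B was called without SP 12 days replicate 3 (log2 fold change −3.20) and MUC16 was called without SP 12 days replicate 3 (log2 fold change 3.03).

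CEACAM5 and CEACAM6, neighbouring genes for cell-surface adhesion proteins of the immunoglobulin family, rose late. CEACAM5 had 59.3, 57.4 and 74.4 in the controls and 1085, 1238 and 1711 at SP 12 days (log2 fold change 4.40 ± 0.18, adjusted p 2.56e-10), and at SP 3 days its mean was 83.0. CEACAM6 had 5950.3, 5471 and 6531 normalized counts in the controls and 21456, 22150.0 and 22320.0 at SP 12 days (log2 fold change 1.88 ± 0.09, adjusted p 4.37e-10), against 6495 at SP 3 days. In both genes every SP 12 days library lay above every control and every SP 3 days library. Their promoters are shown because both genes were called higher at SP 12 days than at SP 3 days, at chr19:41708376-41708675 and chr19:41755280-41755579 (plus strand, GRCh38.p14, RefSeq), with the E-box CACGTG in capitals at −46 and −45.
CEACAM5: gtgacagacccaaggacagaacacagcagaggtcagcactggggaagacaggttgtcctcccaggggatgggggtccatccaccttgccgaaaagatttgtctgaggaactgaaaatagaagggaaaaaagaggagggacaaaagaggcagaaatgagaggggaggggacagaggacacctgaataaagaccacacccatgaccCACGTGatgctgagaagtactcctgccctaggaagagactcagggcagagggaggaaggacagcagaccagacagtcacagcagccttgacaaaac
CEACAM6: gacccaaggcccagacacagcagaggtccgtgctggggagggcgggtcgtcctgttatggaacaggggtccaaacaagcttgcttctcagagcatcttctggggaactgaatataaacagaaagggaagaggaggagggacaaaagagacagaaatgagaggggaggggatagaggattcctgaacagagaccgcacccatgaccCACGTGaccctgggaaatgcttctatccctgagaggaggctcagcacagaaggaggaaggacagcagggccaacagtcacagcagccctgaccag
The windows matched at 236 of 311 aligned columns (75.9%). CACGTG reads the same on both strands and stood in 6.91% of the windows of genes called higher and 9.07% of those of all tested genes. The related E-box CACCTG (reverse CAGGTG), the letters bound by ZEB and SNAIL repressors, stood in 24.2% of the windows of genes called higher, 19.7% of genes called lower and 19.2% of all tested genes. The AP-1 letters TGANTCA stood in 8.63%, 6.11% and 5.53%. Exons of CEACAM5 and CEACAM6 overlap those of another annotated gene.

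The regulators of epithelial state moved in both directions. Of 18 epithelial transcription factors tested, 7 rose and 9 fell (median −0.28), and without SP 12 days replicate 3 7 rose and 11 fell (median −0.29). Of 13 splicing regulators 4 rose and 3 fell (median −0.02). Among those that fell were the endoderm factor FOXA2 (log2 fold change −0.75 ± 0.13, adjusted p 0.000266, or −0.97 without SP 12 days replicate 3) and the epithelial factor ELF3 (log2 fold change −0.42 ± 0.08, adjusted p 0.00066), which were chosen after their values were seen. ESRP1, which directs epithelial splicing, had 5.16, 3.38 and 3.19 in the controls and 208, 202 and 286 at SP 12 days (log2 fold change 5.82 ± 0.27, adjusted p 1.71e-10), and OVOL2, a repressor of EMT factors, had 2.58, 1.13 and 3.19 in the controls and 38.6, 37.7 and 38.2 at SP 12 days (log2 fold change 3.96 ± 0.36, adjusted p 2.43e-07). GRHL1, which activates junction genes, had 14.6, 12.4 and 23.4 normalized counts in the controls and 70.5, 63.7 and 81.2 at SP 12 days. None of the 3 genes had overlapping groups. NOVA2, a splicing factor of neurons, had 51.6, 27.0 and 55.2 in the controls and 668, 609.8 and 606 at SP 12 days (log2 fold change 3.79 ± 0.16, adjusted p 6.74e-11), and CELF2 rose from 2.16 ± 1.85 to 31.5 ± 6.72 (SD). Of 13 EMT transcription factors tested, 8 rose and 3 fell (median 0.31). ZEB1 had 269, 298 and 278 in the controls and 201, 199 and 192 at SP 12 days and fell (log2 fold change −0.51 ± 0.10, adjusted p 0.000652), whereas SNAI1 rose from 14.3 ± 2.7 to 53 ± 14.7 (SD) and SNAI2 from 7.02 ± 3.53 to 28.7 ± 5.44 (SD). Exons of ELF3, OVOL2, GRHL1, ZEB1 and SNAI2 overlap those of another annotated gene. The call of SNAI1 was lost without any 1 control or SP 12 days replicate 1 (highest adjusted p 0.000366). CELF2 had a log2 fold change of 4.68 without control replicate 1.

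Genes of the matrix and of the mesenchymal state rose alongside the epithelial genes. Of 26 mesenchymal markers and TGF-beta targets tested, 16 rose and 6 fell (median 0.42), and of 22 integrin and laminin chains 16 rose (median 0.55). Of 18 collagens 14 rose and 1 fell (median 0.64, or 0.44 without SP 12 days replicate 3). The collagen median by library was 0.46, 0.46 and 0.88 in replicates 1, 2 and 3. LAMB3, a laminin beta chain, had 499, 529 and 620.3 in the controls and 1391, 1331 and 1174 at SP 12 days. LAMA1 had no read in the 3 controls and 192 at SP 12 days, at least 58.9-fold higher against a floor of 3 reads over the group. COL5A1, a fibrillar collagen, had 1304, 1412 and 1455 in the controls and 4789.5, 4560.0 and 5584 at SP 12 days (log2 fold change 1.84 ± 0.09, adjusted p 3.25e-10), COL6A2 had 224, 216 and 311 normalized counts in the controls and 1142, 959.5 and 1533 at SP 12 days and COL13A1 had 13.8, 14.6 and 10.6 in the controls and 102, 87.0 and 121 at SP 12 days. None of these groups overlapped. SPARC, a matricellular protein, had 119, 107 and 126 in the controls and 518, 509 and 809 at SP 12 days (log2 fold change 2.38 ± 0.17, adjusted p 4.73e-08), and PMEPA1, a TGF-beta target, had 4100.1, 4009 and 3859 normalized counts in the controls and 12123, 11337 and 11792 at SP 12 days (log2 fold change 1.56 ± 0.08, adjusted p 4.32e-10). NNMT, nicotinamide N-methyltransferase, went the other way, from 3243 ± 259 to 861 ± 217 (SD) (log2 fold change −1.91 ± 0.14, adjusted p 2.35e-07). The fibroblast surface marker THY1 had 45.5, 58.6 and 73.3 in the controls and 555, 573 and 491 at SP 12 days (log2 fold change 3.20 ± 0.15, adjusted p 2.02e-10) and LUM, lumican, had 18.9, 19.1 and 10.6 in the controls and 142, 103 and 158 at SP 12 days. Of the 6 fibroblast markers tested 3 rose, and whether other cells contributed was not tested. Exons of LAMB3, LAMA1, COL5A1, SPARC, PMEPA1 and THY1 overlap those of another annotated gene.

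Matrix-remodelling and TGF-beta family genes followed. Among 19 metalloproteinase and plasminogen genes 12 rose and 1 fell (median 0.41): MMP15, a membrane metalloproteinase, had 643, 636 and 764 normalized counts in the controls and 2813, 2693 and 3629 at SP 12 days (log2 fold change 2.16 ± 0.11, adjusted p 7.71e-10), TIMP2, an inhibitor of these enzymes, had 3523, 3427 and 3864 in the controls and 11384, 11361 and 9931 at SP 12 days, and PLAT, tissue plasminogen activator, had 93.7, 95.7 and 121 in the controls and 337, 317 and 344 at SP 12 days. ADAMTS1 rose from 1 read in the controls to 69, a ratio of 63.5 (95% counting interval 11 to 2545). Of 24 TGF-beta ligands, receptors and SMADs, 10 rose and 6 fell (median 0.15). The ligands TGFB2 (log2 fold change 1.80 ± 0.11, adjusted p 2.79e-09) and BMP7 (log2 fold change 3.85 ± 0.22, adjusted p 1.4e-09) and the BMP antagonist GREM1 (log2 fold change 1.84 ± 0.13, adjusted p 8.36e-08) all rose, with no overlap of groups. Exons of TIMP2, TGFB2 and GREM1 overlap those of another annotated gene. ADAMTS1 had a log2 fold change of 7.39 without control replicate 1.

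The antioxidant program fell. Of 25 NRF2 targets tested, 16 fell and 2 rose (median −0.41), and of 24 aldehyde dehydrogenase and aldo-keto reductase genes 13 fell and 6 rose (median −0.43). GCLC, the first enzyme of glutathione synthesis, had 3884, 3975 and 3641 normalized counts in the controls and 1823, 1933 and 1545 at SP 12 days (log2 fold change −1.12 ± 0.09, adjusted p 4.22e-08). SLC7A11, the cystine transporter that supplies it, had 6675, 8743 and 5911 in the controls and 2846, 3140.5 and 2053 at SP 12 days (log2 fold change −1.41 ± 0.17, adjusted p 5.16e-05), and its partner SLC3A2 had 14828, 14857 and 15926 in the controls and 7936, 8682 and 6069 at SP 12 days. KEAP1 itself had 1818, 1753 and 2036 normalized counts in the controls and 702, 847 and 663 at SP 12 days (log2 fold change −1.34 ± 0.10, adjusted p 2.06e-08). The groups were separate in each. ALDH3A1 had 34294, 30714 and 39227 in the controls and 13904, 16504 and 12143 at SP 12 days (log2 fold change −1.29 ± 0.12, adjusted p 2.07e-07), whereas ALDH1A3, which makes retinoic acid, was at 163, 179 and 174 in the controls and 916, 1170.3 and 507 at SP 12 days, with replicate 3 the lowest of its group. Exons of GCLC, SLC7A11, ALDH3A1 and ALDH1A3 overlap those of another annotated gene. The call of SLC7A11 was lost without control replicate 1 or SP 12 days replicate 1 (highest adjusted p 0.000317), that of SLC3A2 without control replicate 3 or SP 12 days replicate 3 (log2 fold change −0.89). ALDH1A3 was called without SP 12 days replicate 2 or 3 (log2 fold change 2.02 or 2.59).

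The amino acid response fell further. Of 32 genes of the ATF4 and unfolded protein response, 19 fell and 5 rose, 12 and 1 of them called, with a median of −0.73. Of all genes tested, 2.23% were called lower and 6.88% higher. NUPR1, a stress-induced chromatin protein, had 663, 673 and 704 normalized counts in the controls and 34.1, 24.2 and 43.8 at SP 12 days (log2 fold change −4.30 ± 0.16, adjusted p 2.01e-11). CHAC1, which degrades glutathione, had 1023, 1022 and 1230.0 in the controls and 162, 161 and 131 at SP 12 days (log2 fold change −2.85 ± 0.12, adjusted p 5e-11). ASNS, asparagine synthetase, had 182, 200.4 and 201 in the controls and 36.4, 26.9 and 39.0 at SP 12 days (log2 fold change −2.51 ± 0.17, adjusted p 9.86e-09), and PHGDH, the entry to serine synthesis, had 2298, 2297 and 2597 normalized counts in the controls and 594, 635 and 536 at SP 12 days (log2 fold change −2.03 ± 0.10, adjusted p 3.7e-10). All 4 genes were lower in every SP 12 days library than in any control, and without SP 12 days replicate 3 their log2 fold changes were −4.58, −2.77, −2.65 and −1.98. Exons of NUPR1 and ASNS overlap those of another annotated gene.

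Heat shock genes rose, 13 of 18 metallothionein and heat shock genes in all (median 0.53). HSPA2 had 1170.5, 995 and 1248 in the controls and 3762, 3659.7 and 4959 at SP 12 days (log2 fold change 1.86 ± 0.12, adjusted p 5.73e-09) and HSPB8 had 260.4, 256 and 336 in the controls and 934, 948 and 824 at SP 12 days (log2 fold change 1.67 ± 0.11, adjusted p 8.27e-09). The copies HSPA1A (log2 fold change 1.65 ± 0.12, adjusted p 1.33e-08) and HSPA1B (log2 fold change 1.37 ± 0.13, adjusted p 7.59e-07) share most of their sequence and cannot be separated with certainty.

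**Figure D3:**
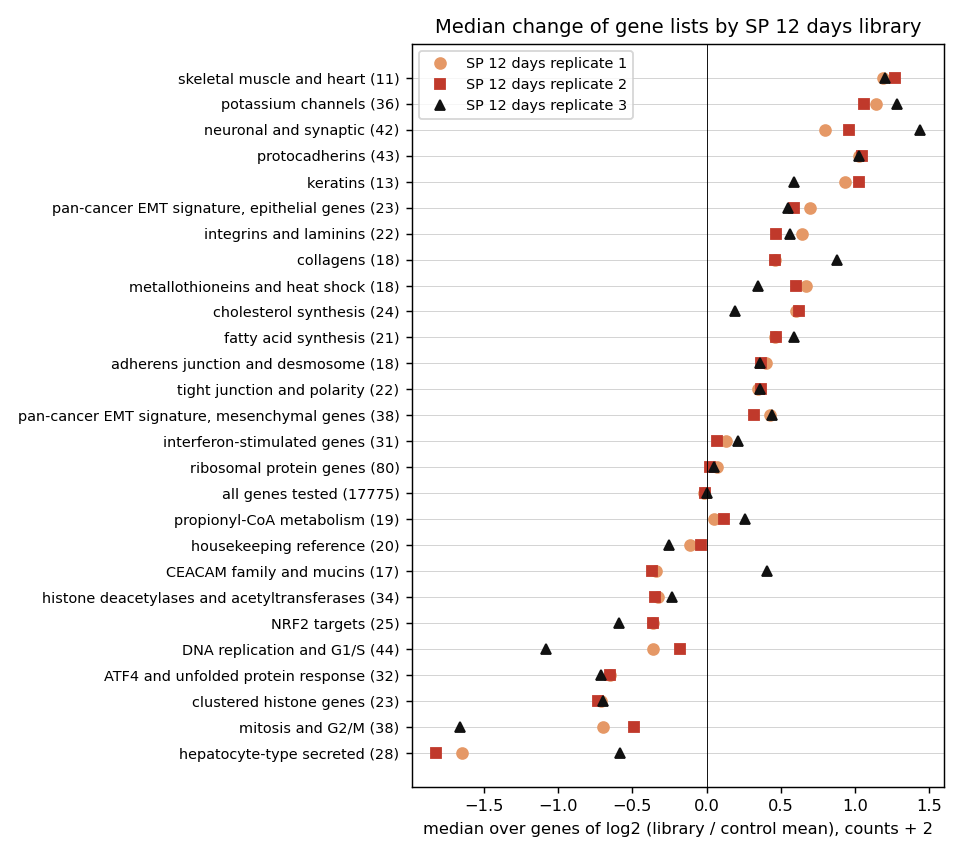
For 26 gene lists and all genes tested, the median over genes of the log2 ratio of each SP 12 days library to the control mean is plotted for replicates 1, 2 and 3, with the number of genes tested in brackets. Replicates 1 and 2 lie close together in most lists, and replicate 3 lies apart in mitosis, DNA replication, hepatocyte-type and CEACAM and mucin genes.

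Genes of cell division were lower, but by how much depended on the library. Of 38 mitosis and G2/M genes 29 fell (median −0.88), and without SP 12 days replicate 3 33 fell (median −0.59). The median by library was −0.70 in replicate 1, −0.49 in replicate 2 and −1.66 in replicate 3. PLK1, a mitotic kinase, had 2111, 1953 and 2422 normalized counts in the controls and 874, 1017 and 394 at SP 12 days (log2 fold change −1.51 ± 0.31, adjusted p 0.00458), and KIF2C, a kinesin of the centromere, had 1091, 1111 and 1193 in the controls and 518, 578 and 254 at SP 12 days. The groups did not overlap in either. MKI67, the Ki-67 proliferation marker, had 5524, 5758 and 5930.2 in the controls and 3358, 4372 and 1413 at SP 12 days (log2 fold change −0.91 ± 0.35, adjusted p 0.067). Of 44 DNA replication and G1/S genes 21 fell and 4 rose (median −0.50, or −0.28 without replicate 3). RRM2, a subunit of ribonucleotide reductase, had 1245, 1159 and 1234 normalized counts in the controls and 1091, 1443 and 324 at SP 12 days, so replicate 3 lay below the controls and replicates 1 and 2 near them. Its log2 fold change was −0.35 ± 0.46, and 0.05 without replicate 3. The cyclins that open the cycle rose instead, CCND1 with 3670.4, 3681 and 3538 in the controls and 8162, 8751 and 6158 at SP 12 days (log2 fold change 1.08 ± 0.11, adjusted p 7.03e-07) and CCNE1 with 401, 325 and 413 in the controls and 948, 969 and 809 at SP 12 days (log2 fold change 1.25 ± 0.10, adjusted p 8.91e-08). CCND2 had no read in the controls and 116, 96.0 and 274 at SP 12 days (0.0005 for the adjusted p), at least 170.0-fold higher against 3 reads. Exons of PLK1, KIF2C, CCND1 and CCND2 overlap those of another annotated gene. The call of CCND1 was lost without SP 12 days replicate 2 (log2 fold change 0.96). PLK1 was called without SP 12 days replicate 3 (log2 fold change −1.21), KIF2C was called without SP 12 days replicate 3 (log2 fold change −1.06) and CCND2 was called without SP 12 days replicate 2 or 3 (adjusted p 8.75e-05).

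Brakes on the cycle were mixed. CDKN1A, the inhibitor p21, had 2342, 2119 and 2436 normalized counts in the controls and 10909.7, 10536 and 8016 at SP 12 days (log2 fold change 2.09 ± 0.11, adjusted p 5.65e-10), whereas CDKN2C, the inhibitor p18, had 681, 670.0 and 678 in the controls and 245, 289 and 255 at SP 12 days (log2 fold change −1.36 ± 0.10, adjusted p 1.77e-08). In the BCL2 family 7 of 13 rose and 4 fell, among them the pro-apoptotic BOK (log2 fold change 1.08 ± 0.11, adjusted p 5.39e-07) and BIK (log2 fold change 2.08 ± 0.26, adjusted p 7.53e-06). Exons of CDKN1A, CDKN2C and BOK overlap those of another annotated gene. The call of BIK was lost without control replicate 3 (adjusted p 0.000117).

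Propionyl-CoA metabolism, the route by which propionate is used, moved little. Of 19 genes tested 8 rose and 3 fell, and the median was 0.24 (8 rose and 5 fell without SP 12 days replicate 3, median 0.07). PCCA, the alpha subunit of propionyl-CoA carboxylase, had 529, 566 and 497 normalized counts in the controls and 517, 492 and 557 at SP 12 days (log2 fold change −0.02 ± 0.09, adjusted p 0.847), and PCCB, the beta subunit, had 1016, 1002 and 1178 in the controls and 1041, 1032 and 886 at SP 12 days (log2 fold change −0.11 ± 0.09, adjusted p 0.33). Both had overlapping groups, and neither change passed. ACSS2, which activates acetate and related acids, had 742, 697 and 808 in the controls and 1583, 1601 and 1155 at SP 12 days (log2 fold change 0.95 ± 0.12, adjusted p 1.65e-05), and HIBADH of valine breakdown had 1473, 1360.3 and 1427 normalized counts in the controls and 2149, 2193 and 2589 at SP 12 days. Among transporters, SLC16A3, the lactate exporter MCT4, had 2175, 2113 and 2279 in the controls and 8025, 7496 and 8797 at SP 12 days (log2 fold change 1.89 ± 0.08, adjusted p 1.27e-10) and SLC16A1, MCT1, had 1262, 1327 and 1196 in the controls and 1639, 1688 and 1554 at SP 12 days (log2 fold change 0.37 ± 0.08, adjusted p 0.00105). Exons of PCCA, PCCB, SLC16A3 and SLC16A1 overlap those of another annotated gene. ACSS2 was called without SP 12 days replicate 3 (log2 fold change 1.07).

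Lipid synthesis rose. Of 24 cholesterol synthesis genes 17 rose and 1 fell (median 0.51), and of 21 fatty acid synthesis genes 14 rose and 1 fell (median 0.44). MSMO1, a sterol demethylase, had 1088, 1087 and 889 normalized counts in the controls and 2881, 2777 and 2067 at SP 12 days (log2 fold change 1.33 ± 0.12, adjusted p 5.87e-07) and LPIN1, a phosphatidate phosphatase, had 1172, 1084 and 1154 in the controls and 3257, 3224 and 2386 at SP 12 days (log2 fold change 1.38 ± 0.11, adjusted p 4.37e-08). The cholesterol list had a median of 0.60, 0.62 and 0.19 in replicates 1, 2 and 3. Genes of fatty acid oxidation rose less, 12 of 31 with 2 that fell (median 0.26), among them ANGPTL4 (log2 fold change 1.16 ± 0.14, adjusted p 3.64e-06). HK2, hexokinase, was at 34.4, 29.3 and 32.9 in the controls and 124, 118 and 143 at SP 12 days (log2 fold change 1.99 ± 0.18, adjusted p 2.35e-07), in a glycolysis and hypoxia list in which 11 of 35 rose and 7 fell (median 0.01). Of the 35, 3 were called higher (SLC2A3, HK2 and PFKFB4) and 2 lower (CA9 and CA12). Of all genes tested, 6.88% were called higher and 2.23% lower. The call of PFKFB4 (log2 fold change 1.00 ± 0.15, adjusted p 3.9e-05) was lost without control replicate 1 or 2 or any 1 SP 12 days library (log2 fold change 0.85 to 1.03). Exons of LPIN1 and PFKFB4 overlap those of another annotated gene.

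The enzymes that set histone acetylation were lower. Of 34 deacetylase and acetyltransferase genes 19 fell and 4 rose (median −0.31). KAT6B had 666, 723 and 698 normalized counts in the controls and 295, 318 and 250.0 at SP 12 days (log2 fold change −1.27 ± 0.11, adjusted p 9.25e-08), CREBBP, the acetyltransferase CBP, had 2104, 2161 and 2321 in the controls and 939.7, 1095 and 1012 at SP 12 days (log2 fold change −1.11 ± 0.08, adjusted p 3.46e-08) and SIRT1, a deacetylase, had 1026, 1113 and 921 in the controls and 501, 555 and 561 at SP 12 days. Of 26 DNA methylation and Polycomb genes 9 fell and 4 rose (median −0.14), and TET3, which oxidises methylcytosine, had 818, 855 and 878 normalized counts in the controls and 378, 442 and 467 at SP 12 days (log2 fold change −0.98 ± 0.10, adjusted p 4.94e-07). Of 23 clustered histone genes 14 fell (median −0.70), such as H3C10 (log2 fold change −1.20 ± 0.15, adjusted p 9.84e-06). Histone transcripts mostly lack poly(A) tails, and their counts depend on the library method. Exons of KAT6B and TET3 overlap those of another annotated gene. The call of H3C10 was lost without control replicate 3 (adjusted p 0.000136). TET3 was called without control replicate 1 or SP 12 days replicate 2 or 3 (log2 fold change −1.01 or −1.02 or −1.06).

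Among genes best known from neurons, excitable membranes and muscle, more rose than fell. Of 42 neuronal and synaptic genes tested 28 rose and 6 fell, with a median log2 fold change of 1.35 (1.07 without SP 12 days replicate 3). NEFL, the light neurofilament chain, had 22.3, 22.5 and 30.8 in the controls and 977, 975 and 687 at SP 12 days (log2 fold change 5.12 ± 0.18, adjusted p 1.48e-11), and MAPT, the microtubule protein tau, had 46.4, 46.2 and 61.6 in the controls and 766, 733 and 777 at SP 12 days (log2 fold change 3.89 ± 0.12, adjusted p 5.63e-12). HPCAL4, a neuronal calcium sensor, rose from 3 reads to 235, a ratio of 72.1 (95% counting interval 24.4 to 352). Every SP 12 days library lay above every control in these genes. Of 36 potassium channel genes 24 rose and 5 fell (median 1.37, or 1.10 without replicate 3). KCNH2, the HERG channel, had 79.1, 81.1 and 74.4 normalized counts in the controls and 527, 454 and 678 at SP 12 days (log2 fold change 2.82 ± 0.14, adjusted p 4.93e-10). Of 43 protocadherins 30 rose and 2 fell (median 1.05). PCDH1 had 39.5, 39.4 and 43.5 in the controls and 872, 793 and 895 at SP 12 days (log2 fold change 4.38 ± 0.12, adjusted p 1.51e-12), and PCDHB6 had 30.1, 22.5 and 12.7 normalized counts in the controls and 187, 197 and 158 at SP 12 days, with near-identical cluster members that could share its reads. Of 30 muscle and heart genes listed only 11 had enough reads to be tested, and 8 of these rose, all of them called (median 1.21). Of all genes tested, 6.88% were called higher, and of those in the lowest bin of control level (up to 20.2 counts) 13.4%. The 8 included CKB, brain creatine kinase (log2 fold change 1.81 ± 0.09, adjusted p 5.65e-10), MYH14, a nonmuscle myosin (log2 fold change 1.93 ± 0.12, adjusted p 3.49e-09), and TNNC1, a troponin (log2 fold change 2.55 ± 0.24, adjusted p 2.97e-07). By contrast, of 15 testis and germline genes 2 rose and 1 fell (median −0.10). Of 52 neuronal and 42 potassium channel genes listed, 42 and 36 were tested. Members near 0 in the controls were tested only if an SP group held enough reads. The filter and the floor thus set part of the counts of these lists in advance. Exons of NEFL, MAPT, PCDHB6 and MYH14 overlap those of another annotated gene.

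Zinc finger genes, many of which encode repressors, moved in both directions. Of 404 ZNF genes tested 115 rose (28.5%, against 26.4% of all genes) and 79 fell (19.6%, against 23.4%), with a median of 0.06. Of the 404, 36 were called higher and 5 lower, where 6.88% and 2.23% of all genes tested were called. Of the 190 on chromosome 19 30 were called higher (15.8%), of the 214 elsewhere 6 (2.8%), and of the 1053 other genes of chromosome 19 119 (11.3%). ZNF736, on chromosome 7, had 1.72, 0 and 1.06 in the controls and 110.2, 117 and 119 at SP 12 days (log2 fold change 6.68 ± 0.37, adjusted p 1.06e-09), from 3 reads to 376, a ratio of 115 (95% counting interval 39.2 to 562). Its SP 12 days libraries were nearly equal. ZNF528 and ZNF737 had no read in the 3 controls, and 92.0, 55.6 and 95.6 and 63.6, 66.4 and 74.1 at SP 12 days, at least 80.7-fold and 68.4-fold higher against 3 reads. ZNF816 rose from 4 reads to 130. Exons of ZNF736, ZNF737 and ZNF816 overlap those of another annotated gene. ZNF736 had a log2 fold change of 7.42 and ZNF816 of 5.89 without control replicate 1.

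Immune and inflammatory genes rose in part. Of 31 antigen presentation and immune ligand genes 17 rose and 8 fell (median 0.48). HLA-B had 362, 322 and 391 in the controls and 1319, 1199 and 1531 at SP 12 days (log2 fold change 1.91 ± 0.11, adjusted p 9.84e-10), though HLA genes share reads. ULBP2, a ligand of the natural killer receptor NKG2D, had 24.9, 15.8 and 20.2 normalized counts in the controls and 155, 169 and 167 at SP 12 days (log2 fold change 2.98 ± 0.19, adjusted p 5.14e-09), and ICAM1, an adhesion ligand of leukocytes, had 54.1, 48.4 and 56.3 in the controls and 202, 156 and 214 at SP 12 days (log2 fold change 1.84 ± 0.16, adjusted p 1.38e-07). HLA-DMB, which loads class II molecules, fell from 1989.9 ± 119.9 to 182 ± 101 (SD) (log2 fold change −3.42 ± 0.31, adjusted p 3.38e-05). Of 27 chemokine, cytokine and NF-kB genes 14 rose and 6 fell (median 0.65), among them CXCL8, interleukin 8, with 145, 129.5 and 126 in the controls and 672, 604 and 461 at SP 12 days (log2 fold change 2.1 ± 0.14, adjusted p 1.12e-08), CCL26 (log2 fold change 2.74 ± 0.22, adjusted p 6.76e-08) and IL32 (log2 fold change 3.33 ± 0.24, adjusted p 1.9e-08). Of 31 interferon-stimulated genes 12 rose and 8 fell (median 0.20). Without SP 12 days replicate 3, 12 rose and 12 fell (median 0.08). Exons of HLA-B, ICAM1, HLA-DMB and IL32 overlap those of another annotated gene. The call of HLA-DMB was lost without any 1 control or SP 12 days replicate 1 (highest adjusted p 0.000268). HLA-DMB had a log2 fold change of −4.02 without SP 12 days replicate 3.

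In the developmental signalling lists more genes rose than fell. Of 42 Wnt pathway genes 23 rose and 6 fell (median 0.55), of 30 Notch pathway genes 17 rose and 4 fell (median 0.48), and of 18 retinoic acid genes 8 rose and 5 fell (median 0.14). The Notch regulator DTX1 had 4.3, 5.63 and 12.7 normalized counts in the controls and 168, 153 and 229 at SP 12 days (log2 fold change 4.62 ± 0.28, adjusted p 2.29e-09), and HES2 and HES7, repressors of the HES family, had 30.1, 43.9 and 35.1 in the controls and 244, 264 and 330.5 at SP 12 days and 48.1, 56.3 and 60.5 in the controls and 308, 269.9 and 358 at SP 12 days. CRABP2, which delivers retinoic acid to the nucleus, had 26.6, 24.8 and 29.7 normalized counts in the controls and 344, 316 and 317 at SP 12 days (log2 fold change 3.58 ± 0.14, adjusted p 3.52e-11), whereas RBP4, the plasma retinol carrier, had 258, 222 and 289 in the controls and 27.3, 34.1 and 46.2 at SP 12 days (log2 fold change −2.81 ± 0.19, adjusted p 7.26e-09). Of the AP-1 and immediate early genes 9 of 27 rose and 10 fell (median −0.07), and JUN had 478, 430.2 and 438 in the controls and 1949.9, 1776 and 1939 at SP 12 days (log2 fold change 2.07 ± 0.09, adjusted p 1.61e-10). ERRFI1, a feedback inhibitor of ERBB receptors, fell from 2589 ± 137 to 1053 ± 19.9 (SD) (log2 fold change −1.30 ± 0.08, adjusted p 2.21e-09). Exons of ERRFI1 overlap those of another annotated gene.

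Lung identity genes differed by list: most alveolar type II genes rose, and the airway and lineage lists were mixed. Of 12 alveolar type II genes tested 7 rose and 2 fell (median 0.53, or 0.49 without SP 12 days replicate 3). Of 12 airway genes 6 rose and 4 fell (median 0.24, or −0.08 without SP 12 days replicate 3), and of 11 lung lineage factors 4 rose and 3 fell (median −0.07). LPCAT1, which makes surfactant lipid, had 2034, 1972 and 2129.7 normalized counts in the controls and 6449, 6141 and 5964 at SP 12 days (log2 fold change 1.60 ± 0.08, adjusted p 2.29e-10), and LAMP3, of lamellar bodies, had 3.44, 2.25 and 4.25 in the controls and 45.5, 35.9 and 65.3 at SP 12 days (log2 fold change 3.83 ± 0.36, adjusted p 3.55e-07). GALNT12, an enzyme that starts mucin-type glycans, had 243, 214 and 237 in the controls and 958, 824 and 845 at SP 12 days (log2 fold change 1.92 ± 0.10, adjusted p 4.7e-10), in a glycan list in which 14 of 28 rose and 2 fell (median 0.41). Genes used as stable references gave the background: of 20, 2 fell (median −0.11), and of 80 ribosomal protein genes 11 rose and 6 fell (median 0.04). Exons of GALNT12 overlap those of another annotated gene.

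Replicate 3 of SP 12 days was examined gene by gene. Of the 523 genes in which it exceeded both partners, 213 lay nearer the control mean and 384 nearer the SP 3 days mean than the mean of replicates 1 and 2 did. Of the 368 in which it was lower, the numbers were 87 and 121. TXNIP, a regulator of glucose uptake, had 566, 638 and 523 normalized counts in the controls and 86.4, 49.3 and 579 at SP 12 days, so that replicate 3 lay among the controls and the other replicates far below them (log2 fold change −1.23 ± 0.79, adjusted p 0.245). C4BPA, a complement regulator, had 203, 182 and 198 in the controls and 160.2, 128 and 610.0 at SP 12 days, with replicate 3 above and the others below the controls (log2 fold change 0.65 ± 0.57, or −0.46 without it). TM4SF20 had 1072, 1048 and 938 in the controls and 53.4, 51.1 and 209 at SP 12 days and IGFBP5 had 19.8, 27.0 and 22.3 normalized counts in the controls and 72.7, 44.8 and 259 at SP 12 days. In each of these genes the direction of the departure was toward the SP 3 days means, which were 644, 385, 281 and 203. Mitosis genes departed the other way, 31 of 37 below both partners, as did 28 of 43 replication genes. Of the genes above and below, 88 and 31 were called in the comparison with the control, where 9.11% of all genes tested were called. The median log2 ratio to the controls of genes called higher was 1.84, 1.73 and 1.96 in replicates 1, 2 and 3, and of genes called lower −1.43 in each. The origin of the difference was not tested. Exons of IGFBP5 overlap those of another annotated gene. TXNIP was called without SP 12 days replicate 3 (log2 fold change −3.14), TM4SF20 was called without SP 12 days replicate 3 (log2 fold change −4.30) and IGFBP5 was called without SP 12 days replicate 3 (log2 fold change 1.32).

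**Figure D4:**
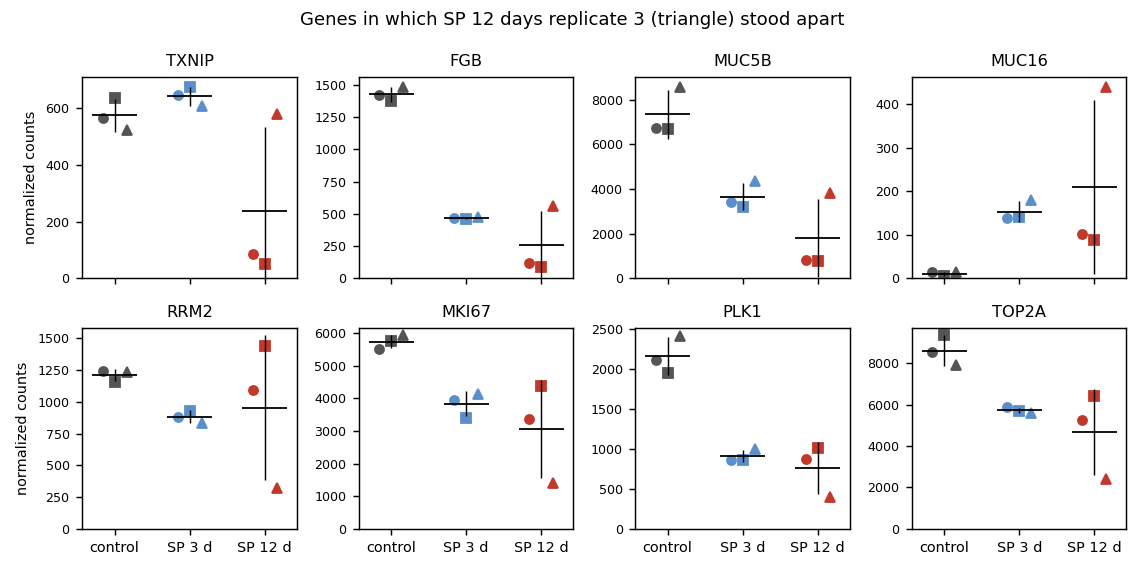
Normalized counts (from 0) of 8 genes by library, with group means and SD, chosen after their values were seen as genes in which SP 12 days replicate 3 (triangle) stood apart. TXNIP, FGB and MUC5B lie near the SP 3 days level in replicate 3, and RRM2, MKI67, PLK1 and TOP2A lie below every other library.

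SP 12 days was also compared with SP 3 days directly, where both groups carry SP and differ in time. Only 32 genes were called (0.18%), 27 higher and 5 lower, and 1440 passed (8.1%). On leaving out SP 12 days replicate 3 the number called was 300 (104 higher and 196 lower), and on leaving out another of these 6 libraries it was 6 to 28. CEACAM5 had the largest rise from an ample count, a log2 difference of 4.02, from 83.0 to 1345 normalized counts on average, followed by ZNF91 (2.62), ZNF736 (2.47), ZBED2 (2.22) and ESRP1 (2.01). NEFL went from 279.5 to 879.7. These genes rose from control to SP 12 days as well, so the later libraries held the higher level. DHRS2, a mitochondrial dehydrogenase that deacetylase inhibitors induce, was at 30.0 in the controls, 423 at SP 3 days and 112 at SP 12 days. ALDH3A1 was at 34745, 5794 and 14184, so its loss was smaller at SP 12 days. The comparisons with the control share the same 3 control libraries, so their values are only set side by side here: for SP 3 days and SP 12 days against the control, the log2 fold changes were 2.18 and 2.55 for KRT19, 1.38 and 1.23 for CDH1, 1.36 and 2.45 for EPCAM, and −4.13 and −4.30 for NUPR1. Genes beyond the largest in this comparison were chosen after their values were seen. Exons of CEACAM5, ZNF736, NEFL, ALDH3A1, CDH1 and NUPR1 overlap those of another annotated gene.

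**Figure D5:**
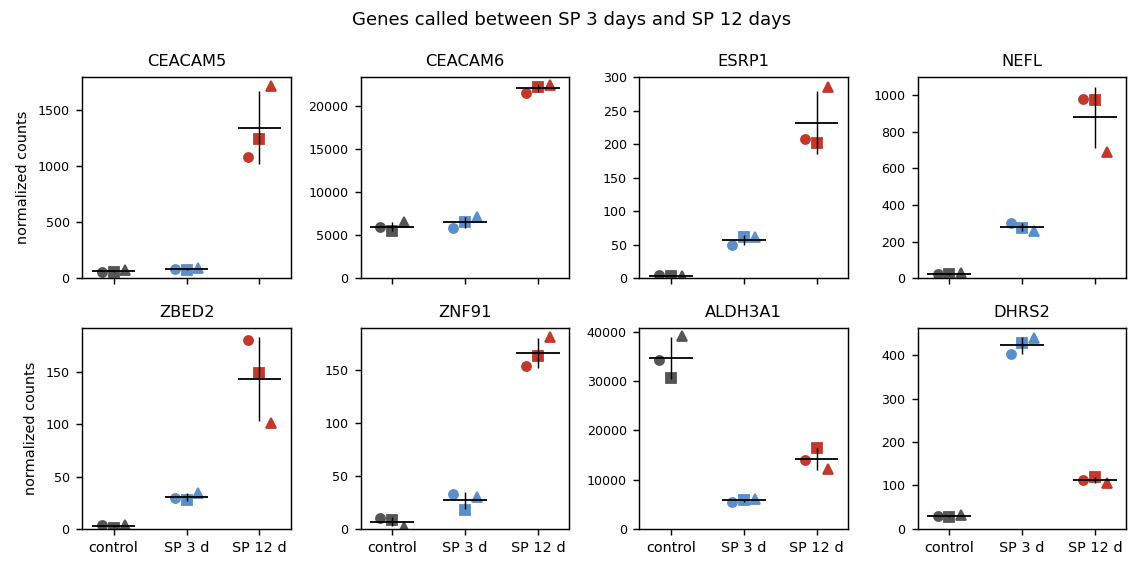
Normalized counts (from 0) of 8 genes called between SP 12 days and SP 3 days, by library, with group means and SD. In 6 of the panels the SP 12 days libraries lie above both other groups, ALDH3A1 lies between SP 3 days and the control, and DHRS2 is highest at SP 3 days.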

How the data were processed

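Total RNA of A549 cells was sequenced as paired-end libraries (NEBNext Ultra, an Illumina NovaSeq). The authors aligned reads to GRCh38 with the Ensembl annotation using STAR (2.7.9a) and deposited raw read counts per gene from featureCounts, with no normalization, as 1 table of 9 libraries used here. Whether strand or multimapping reads were counted was not stated in the sources used here. Symbols and positions came from a GENCODE annotation of GRCh38, found for 61369 of 61541 genes, and promoters from RefSeq (GRCh38.p14).

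Genes with too few reads were left out (filterByExpr, minimum count 10). The 9 libraries of 3 groups were fitted together with edgeR 4.0.16 (R 4.3.3), TMM scaling and the robust quasi-likelihood test, which gave a biological coefficient of variation of 0.0996 and a median standard error of 0.129 on the log2 scale. All p-values were adjusted by the Benjamini-Hochberg method over the genes tested. A prior count of 2 was added for ratios of single libraries. Intervals of read ratios and the floor of 3 reads cover counting error only. The test was checked on simulated data. The rule for named genes took the called genes with the largest fold changes (15 up and 15 down, a mean of at least 100 in either group and no overlap between groups), those with the largest gain or loss of counts (10 and 10), genes the study names for this experiment, up to 4 members of each list with the largest change among those that passed at a mean of at least 20, list members needed to describe a pathway, and the 10 genes of mean 100 or more in which SP 12 days replicate 3 departed most. The members and lists were chosen with earlier results of these data known. Alternatives were DESeq2 1.42.0, other scaling, filters and thresholds, a correction for GC content and length, a replicate block, and each library left out in turn.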

Additional observations from a re-analysis of the deposited data

Results flagged for a closer look

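Between SP 12 days and SP 3 days 32 genes were called in the direct test (edgeR quasi-likelihood test). Longer SP treatment and longer time in culture cannot be told apart in this comparison. The genes named in the text are given here with their log2 differences, SP 12 days minus SP 3 days. Higher at SP 12 days were the adhesion genes CEACAM5 (4.02) and CEACAM6 (1.76), the splicing regulator ESRP1 (2.01), the keratin KRT15 (1.13), PRSS22, a serine protease (1.79), TSPAN1, a tetraspanin (1.60), and MAL2, a protein of apical transport (1.90). The zinc finger genes ZNF91 (2.62), ZNF736 (2.47) and ZNF468 (1.48), the factor ZBED2 (2.22), the cell cycle inhibitor CDKN1A (1.14), ALDH3A1 (1.29), CAPN8, a calpain (3.07), MARCOL (4.10), SYTL2, of vesicle transport (1.05), NEFL (1.65), DPYSL3 (1.11) and DCLK1 (1.88) were higher as well. Lower at SP 12 days were ANPEP, an aminopeptidase (−1.93), DHRS2 (−1.91) and SUSD2 (−1.38). The number called was 300 without SP 12 days replicate 3 and 6 to 28 without another of the 6 libraries. Groups of 3 are too small for the test of single outlying samples, so none was applied.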

How the results depend on the processing

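Between SP 12 days and the control 1620 genes were called. The number was 930 with a replicate block in a fit of these 2 groups, 2838 at an adjusted p under 0.05 with the 2-fold minimum, 2727 at an adjusted p under 0.0001 with no minimum fold and 1206 to 1994 when 1 library was left out. It stayed within 1.5 times under DESeq2 (1870), RLE scaling (1632), no filter on low counts (2277), the 2 groups alone (1211), a GC and length correction (1559, 1123 higher and 436 lower) and a replicate block over 9 libraries (1452). Deviations of same-numbered control and SP 12 days libraries had correlations of −0.01, −0.002 and 0.028. Those of libraries with different numbers lay between −0.05 and 0.059. With 3 libraries in each group these values cannot settle whether the numbers pair the libraries. Against SP 3 days 32 genes were called, and the number was 98 by DESeq2, 167 with no filter, 15 with a replicate block, 252 at an adjusted p under 0.05 with the 2-fold minimum and 6 to 300 when 1 library was left out. The log2 fold change reached 0 or turned for 4 named genes. PCCA was at 0.0 with no filter and without SP 12 days replicate 2 and at 0.01 without control replicate 2, within a range of −0.09 to 0.01 when 1 library was left out. Without SP 12 days replicate 3 it turned for TJP1 (range −0.16 to 0.05), C4BPA (−0.46 to 1.00) and RRM2 (−0.81 to 0.05). The causes were not tested. Of 294 named genes 194 were called, and 150 of these kept the call whichever library was left out. Depth limits the fold changes of genes with few reads most: in 59 genes called higher the controls together held 3 reads or fewer.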
